A study of Caenorhabditis elegans with 2 samples.

Results

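The genes ets-9, ets-4, ets-7, ast-1 and lin-1, which encode ETS-domain transcription factors other than ETS-5, were taken by name and are 5 of the 19973 protein-coding genes on the nuclear chromosomes of the Caenorhabditis elegans annotation. A region was given to a gene when its summit, the position of highest signal, lay within 2000 bp of an annotated start site or inside the gene body. The annotation also holds ets-6, ets-8 and ets-10, which are given further on for comparison. By the summit rule the 5 genes held 68 of the 126002 regions that the authors ranked for the series, 55 of the 108309 ranked for replicate 1 and 53 of the 92443 ranked for replicate 2. The regions came from chromatin immunoprecipitation with sequencing of an ETS-5 fusion to GFP, in 1 group of 2 biological replicates with no second condition. The larvae were of strain OP809, in which the transgene wgIs809 carries ets-5 with a TY1, EGFP and 3xFLAG tag together with unc-119(+), on an unc-119(tm4063) background. They were whole L1 larvae at 6 hours, starved after bleaching, and the precipitation used an antibody to GFP. Both replicates are of that strain, the genotype lists no change to the native ets-5 gene, and whole larvae mix all cell types. An untagged control was not analysed here, and the read depth of the replicates is unknown from the region lists.

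ETS-domain proteins bind DNA through a winged helix that reads a GGAA core, and CCGGAA is a well-known longer form of that core. In C. elegans, LIN-1 acts downstream of Ras and MAP kinase signalling in vulval cell fate, AST-1 is needed for dopaminergic neuron identity and axon guidance, and ETS-4 acts in lifespan and axon regeneration. ets-7 and ets-9 encode further ETS-domain proteins.

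Regions named below are shown first as sequence, because the words under their summits are counted below. Most are leading regions of their gene. The ets-7 stretch is not of its highest region, which lies downstream. The last lin-1 stretch is of a weaker region, at a signal of 27.5, printed for its repeated words. The lin-1 region of signal 54.3 is not printed. Each stretch is read 5′ to 3′ on the plus strand of ce11, from the RefSeq genome, and spans 100 bp on each side of a summit less any part in an annotated untranslated exon. Of the first ast-1 region, which lies in such an exon, 30 bases are given. Capitals mark every GGAA, or TTCC where the core is on the other strand.
ets-9 upstream region, chrX:4279049-4279212: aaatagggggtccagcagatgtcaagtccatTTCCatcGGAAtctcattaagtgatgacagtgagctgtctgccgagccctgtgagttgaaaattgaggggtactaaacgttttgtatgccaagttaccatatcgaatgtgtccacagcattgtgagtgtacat
ets-4 internal start region, chrX:6519851-6520051: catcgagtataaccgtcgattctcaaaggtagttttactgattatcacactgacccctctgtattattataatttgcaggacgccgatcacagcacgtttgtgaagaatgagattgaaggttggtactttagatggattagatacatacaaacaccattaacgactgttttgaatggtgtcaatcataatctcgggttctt
ets-7 upstream region, chrV:7559056-7559256: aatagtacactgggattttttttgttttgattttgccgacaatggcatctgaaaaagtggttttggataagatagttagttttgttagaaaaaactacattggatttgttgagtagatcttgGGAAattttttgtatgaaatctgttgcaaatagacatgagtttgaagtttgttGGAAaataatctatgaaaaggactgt
ast-1 first exon site, chrII:4134952-4134981: cattggttGGAAgaGGAAggggagcctgtg
ast-1 coding exon region, chrII:4129127-4129327: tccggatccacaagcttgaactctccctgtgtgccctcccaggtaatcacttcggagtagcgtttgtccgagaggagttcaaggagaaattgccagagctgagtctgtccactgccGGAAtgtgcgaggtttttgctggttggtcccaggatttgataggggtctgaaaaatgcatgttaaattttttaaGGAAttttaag
lin-1 intron region with the highest signal, chrIV:2288140-2288340: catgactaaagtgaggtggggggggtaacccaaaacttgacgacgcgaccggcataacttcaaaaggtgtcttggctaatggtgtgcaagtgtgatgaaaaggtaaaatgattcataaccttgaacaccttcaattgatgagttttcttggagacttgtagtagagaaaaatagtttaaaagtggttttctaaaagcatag
lin-1 intron region with the next signal, chrIV:2289957-2290157: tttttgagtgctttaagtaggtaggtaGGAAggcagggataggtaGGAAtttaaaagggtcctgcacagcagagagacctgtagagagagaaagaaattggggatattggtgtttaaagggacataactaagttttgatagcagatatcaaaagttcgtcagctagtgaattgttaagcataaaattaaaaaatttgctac
lin-1 intron region highest in replicate 2, chrIV:2286351-2286551: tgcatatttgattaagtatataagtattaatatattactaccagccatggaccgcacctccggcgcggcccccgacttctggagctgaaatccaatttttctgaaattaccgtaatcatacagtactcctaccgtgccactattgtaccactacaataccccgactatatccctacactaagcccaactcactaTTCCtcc
lin-1 intron region with repeated words, chrIV:2283101-2283301: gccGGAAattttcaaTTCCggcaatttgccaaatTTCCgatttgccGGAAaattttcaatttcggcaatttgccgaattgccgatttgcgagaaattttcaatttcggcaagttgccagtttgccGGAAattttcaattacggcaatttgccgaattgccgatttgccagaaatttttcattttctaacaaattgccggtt

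ets-9 was the only one of the 5 genes with a region in the main list, the 250 regions that pass the authors' threshold on the irreproducible discovery rate (IDR), a measure of how poorly a region's rank recurs between lists. Thus 1 of these 5 genes was called, where 1.3% of all protein-coding genes were called by the same rule. The called region, chrX:4278994-4279303, had its summit 554 bp upstream of the first of 5 ets-9 start sites. Its signal, the authors' value for a region on a scale that is not stated, was 76.0 in the series ranked list, 44.2 in replicate 1 and 33.6 in replicate 2. The region ranked 370 of 126002 in the series, 443 of 108309 in replicate 1 and 1629 of 92443 in replicate 2, so it was high in both replicates. Within the main list it stood near the low end, at rank 205 of 250 by signal, against a list median of 83.9.

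The ets-9 call lay close to the threshold and was not made in the other passing lists. Its global IDR in the series ranked list was 0.00842, and the highest IDR among the 250 passing regions was 0.00998. In the second series ranked list, from which the conservative list of 177 regions is drawn, the region had the same signal but an IDR of 0.0110 and a score of 813, below the lowest passing score of 830. The conservative list called 0 of the 5 genes, where it called 0.931% of all genes. In the ranked list of replicate 1 the region had an IDR of 0.0778, and in that of replicate 2 an IDR of 0.340. The replicates' own passing lists called 0 of the 5 genes, where that of replicate 1 called 0.1% and that of replicate 2 called 0.135% of all genes.

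The ets-9 region is shared with a neighbouring gene. The start site of twk-28, a potassium channel gene of the TWiK family on the opposite strand, lies 359 bp from the first start site of ets-9. The summit falls in an intron of twk-28, 195 bp from its start, and is therefore nearer to twk-28 than to ets-9. With each region given to its nearest start site only, 0 of the 5 genes were called. The other 3 regions of ets-9 had signals of 43.5, 24.4 and 21.6 in the series list, where the list median was 23.6. That of 43.5 lay downstream of the gene, in the 1555 bp between ets-9 and its neighbour ets-10, another ETS-domain gene, and fell within the window of both and in an intron of C52B9.19. ets-9 had the sparsest set of regions of the 5, at 7.58 per 10 kb of window, against a median of 13.1 per 10 kb over all protein-coding genes.

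**Figure D1:**
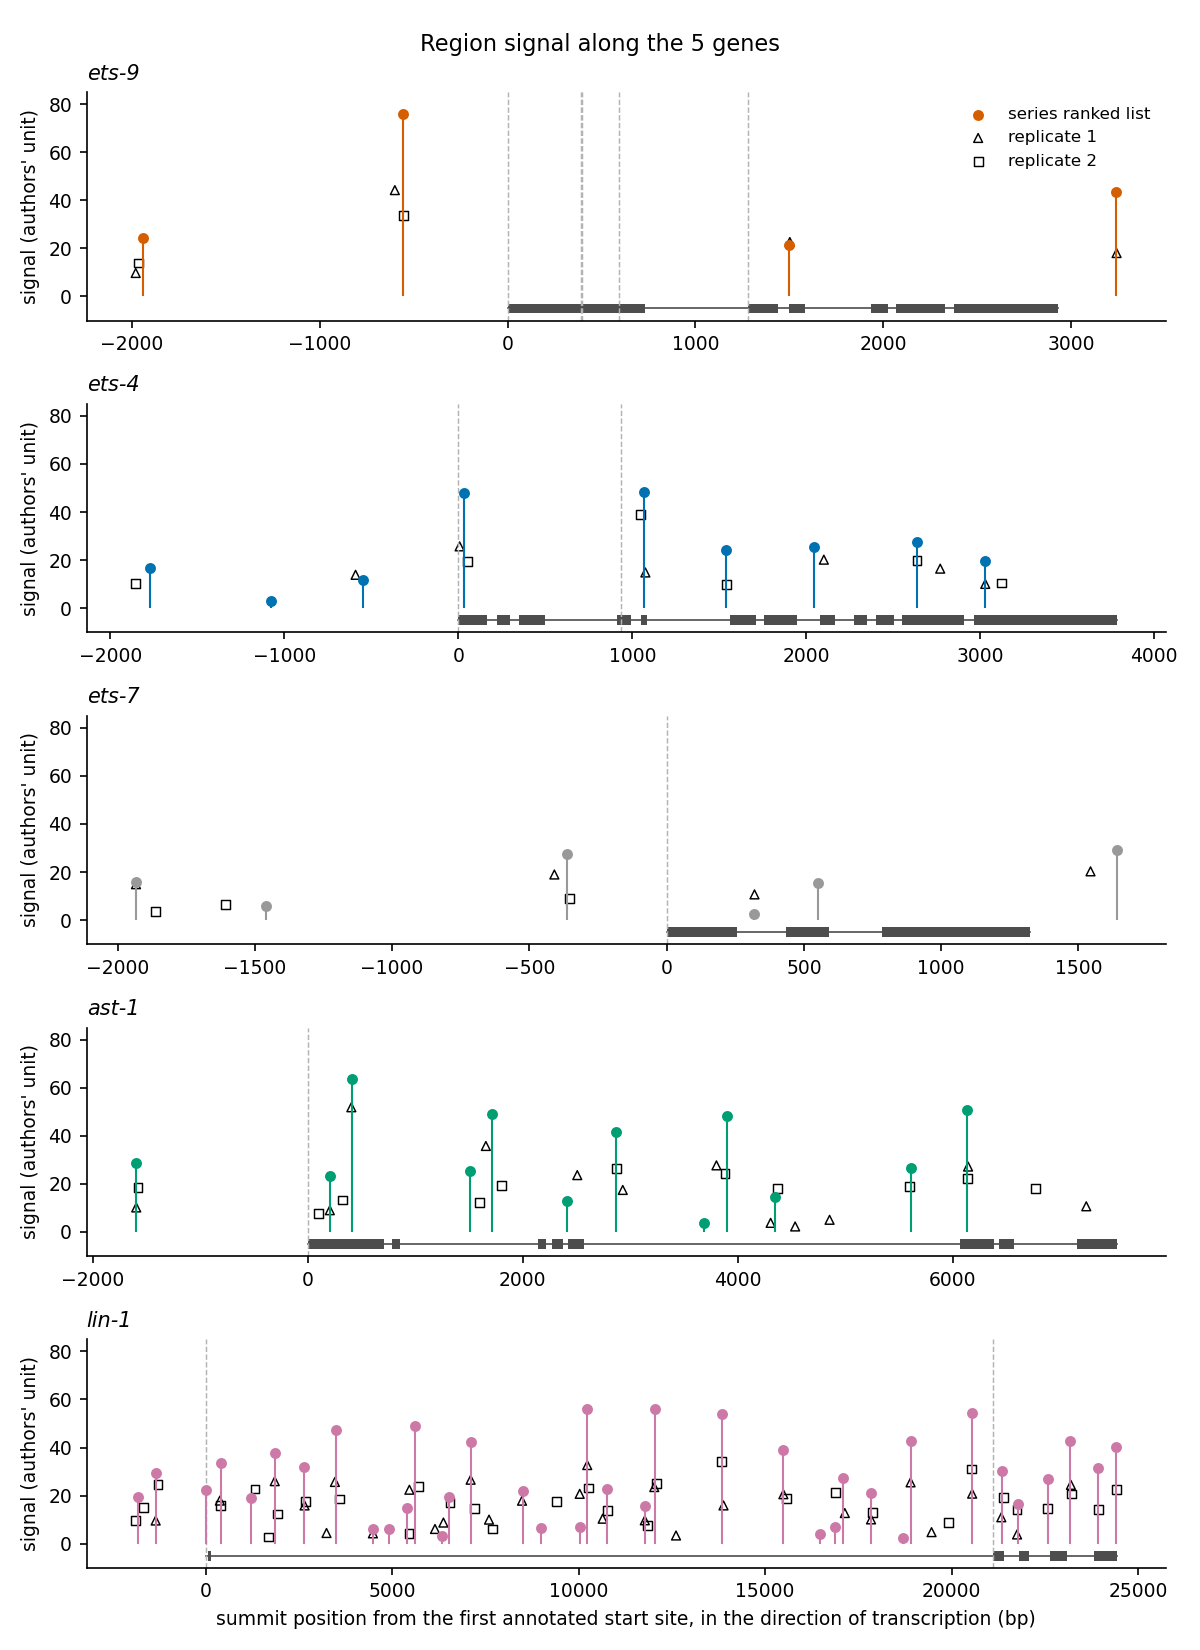
Region signal (authors' unit, vertical) by summit position from the first annotated start site in the direction of transcription (bp, horizontal), 1 panel per gene. Filled points on stems are series regions, open triangles replicate 1, open squares replicate 2, dashed lines start sites and dark boxes exons. The ets-9 region 554 bp upstream, at 76.0, is the highest of all 68, and the lin-1 regions spread along the long intron between its start sites.

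ast-1 had the second highest region of the 5 genes, and its replicates ranked that region far apart. The region, chrII:4134796-4135105, lies in the untranslated part of the first exon, with its summit 408 bp past the start site. Its signal was 63.6 in the series list, 51.8 in replicate 1 and 13.3 in replicate 2. It ranked 1397 in the series and 143 in replicate 1, but 51875 in replicate 2, below the median of that list. Its IDR was 0.0171 in the series list, 0.266 in the second series list, 0.0346 in replicate 1 and 0.697 in replicate 2. The replicate 2 summit lay 82 bp away from that of the series region. Such splits were not particular to ast-1. Of 2408 series regions above the 98th percentile with a counterpart in each replicate, 27 (1.12%) were above the 99th percentile in 1 replicate and below the 50th in the other. The 2408 were chosen by series signal and not limited to regions above the 99th percentile in a replicate. The 1.12% is therefore no rate of splits among such regions.

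The next 3 regions of ast-1 did not show that split. A region in a coding exon, with its summit 6132 bp past the start, had a signal of 50.7 in the series, 27.2 in replicate 1 and 22.4 in replicate 2. An intronic region 1716 bp past the start had 49.1 in the series, 35.7 in replicate 1 and 19.4 in replicate 2. A further intronic region 3895 bp past the start had 48.2 in the series, 27.7 in replicate 1 and 24.4 in replicate 2. All 3 stood above the median signal of each list, which was 23.6 in the series, 14.8 in replicate 1 and 14.5 in replicate 2. In all, 8 of the 12 ast-1 regions were above the series median.

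With a looser limit of IDR under 0.05, ets-9 and ast-1 were called in the series ranked list, 2 of 5 genes, where 10.1% of all genes were called. By the same limit the second series list called ets-9 alone of the 5 (8.66% of all genes). The ranked list of replicate 1 called ast-1 alone (0.786% of all genes), and that of replicate 2 called 0 of the 5 (0.611% of all genes). No such call was therefore shared by the replicates. The lowest series IDR was 0.0687 for lin-1, 0.113 for ets-4 and 0.339 for ets-7.

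lin-1 held the most regions, 37 in the series, 29 in replicate 1 and 31 in replicate 2, over the longest gene body, 24426 bp. Per 10 kb of window it had 14.0 series regions, close to the all-gene median of 13.1. Its 2 start sites lie 21105 bp apart, and 29 of the 37 summits fell between them, all 29 in intron. The signals ran widely, with 10 regions above 40 and 8 below 10, and no single region stood apart at the top. The highest, chrIV:2288085-2288394, had 56.1 in the series, 23.6 in replicate 1 and 24.9 in replicate 2. The next, chrIV:2289902-2290211, had 55.8 in the series, 32.7 in replicate 1 and 23.2 in replicate 2.

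Further lin-1 regions were ordered differently by the replicates. chrIV:2286296-2286605 had 54.0 in the series, 15.9 in replicate 1 and 34.4 in replicate 2, and was the highest lin-1 region of replicate 2 at rank 1389, against rank 48616 in replicate 1. chrIV:2279594-2279903, with its summit 568 bp before the internal start site, had 54.3 in the series, 20.8 in replicate 1 and 31.1 in replicate 2. It was the region of the leading 4 that lay nearest to a lin-1 start. Just outside the window, 3201 bp from the nearest lin-1 start, a region of signal 58.1 ranked above every region inside it.

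ets-4 had 9 series regions, of which the leading 2 lay at its 2 start sites, 936 bp apart. The region at the internal start, chrX:6519796-6520105, had its summit in a coding exon 132 bp past that start. Its signal was 48.5 in the series, 14.9 in replicate 1 and 39.2 in replicate 2. It ranked 8312 in the series, 53715 in replicate 1 and 510 in replicate 2, so it was near the middle in replicate 1 and high in replicate 2. The region at the first start, chrX:6518759-6519068, had its summit in the untranslated exon 31 bp from the start and a signal of 47.8 in the series, 25.7 in replicate 1 and 19.5 in replicate 2. The replicates thus put these regions in opposite orders. The third ets-4 region had a signal of 27.7, and the lowest had 3.00.

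Within these windows, ets-7 had the weakest highest region of the 5 genes. Its 6 series regions had signals of 2.66 to 29.1, and 2 of them were above the series median. The highest, chrV:7556999-7557308, lay downstream of the gene with 29.1 in the series and 20.3 in replicate 1, and no replicate 2 region overlapped it. The region upstream of the start, chrV:7559001-7559310, had its summit 363 bp away and a signal of 27.6 in the series, 19.0 in replicate 1 and 8.82 in replicate 2. That was the highest of the 3 replicate 2 regions of ets-7, and it was below the median of its list.

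**Figure D2:**
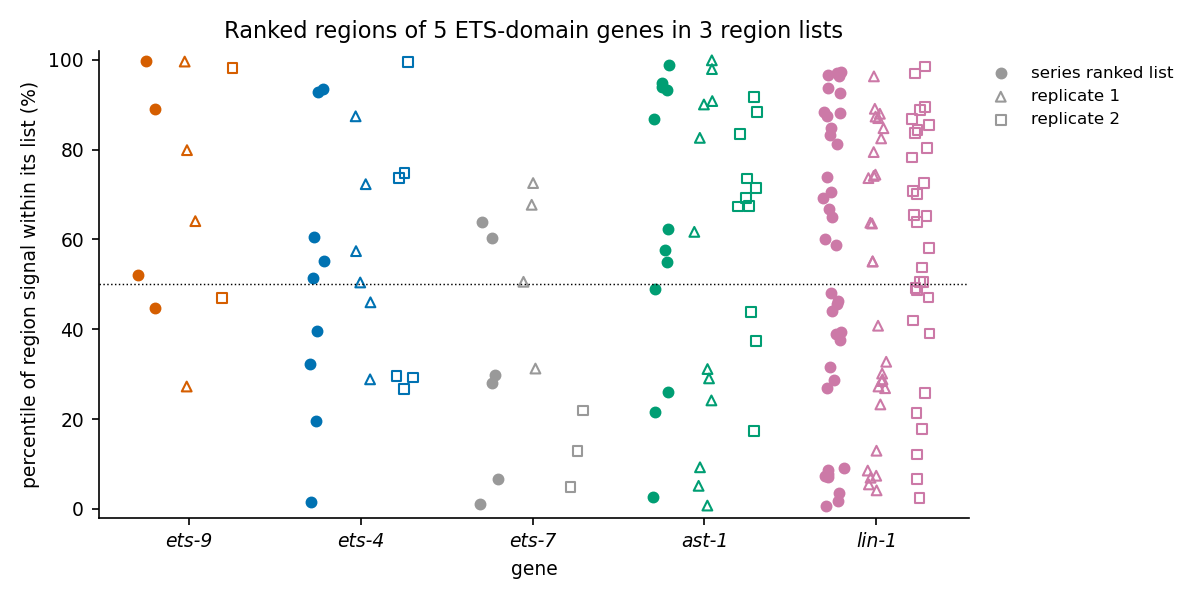
Percentile of each region's signal within its own list (%, vertical) for the 5 genes, with filled circles for the series ranked list, open triangles for replicate 1 and open squares for replicate 2. The dotted line is the list median, and 37 of the 68 series regions lie above it. The ets-7 regions stop at 63.9 in the series and at 21.9 in replicate 2.

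Since the signal scales of the lists differ, the genes were ordered by the percentile of their highest region, the share of regions in the same list with lower signal. Each list gives its own highest region of a gene, and only at ets-9 was it the same region in every list. For ets-9 it was 99.7 in the series, 99.6 in replicate 1 and 98.2 in replicate 2. For ast-1 it was 98.9 in the series, 99.9 in replicate 1 and 91.7 in replicate 2. The replicate 2 value is of another region, 2869 bp past the start, and the leading series region was at percentile 43.9 there. lin-1 came next with 97.2 in the series, 96.3 in replicate 1 and 98.5 in replicate 2, each of a different region. For ets-4 it was 93.4 in the series, 87.4 in replicate 1 and 99.4 in replicate 2. The replicate 1 value is of the region at the first start, and the others are of that at the internal start. ets-7 was last with 63.9 in the series, 72.5 in replicate 1 and 21.9 in replicate 2, the last being of the upstream region and the others of the downstream region. ets-7 was the lowest of the 5 in both replicates within 2000 bp windows, while the replicate ranges of the other 4 genes overlapped, so their order did not exceed the spread between replicates. No test was made of this order, which rests on 2 replicates.

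Set among the protein-coding genes with at least 1 region, 98.1% had a lower highest region than ets-9 in the series list. The share was 92.2% for ast-1, 81.8% for lin-1 and 63.1% for ets-4, and 7.32% for ets-7. The median gene had its highest region at percentile 89.9. The percentile of ets-7 depended on the window, since within 5000 bp of its start its highest series region was at percentile 94.7, in place of 63.9 within 2000 bp. The shares over all genes were computed with 2000 bp windows only, so 94.7 has no such share beside it. Of the 5 genes ets-7 was still the lowest within 5000 bp, with ets-4 next at 97.1. A gene with more regions has more chances of a high one, and the 5 genes ranged from 4 regions at ets-9 to 37 at lin-1, against a median of 6 per gene. ets-5 itself held 13 regions, 4 of them in the main list and 10 at IDR under 0.05, with its highest signal at 127.7 and rank 42. The strain also carries ets-5 in the transgene, so binding and added copies of this DNA cannot be told apart there.

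**Figure D3:**
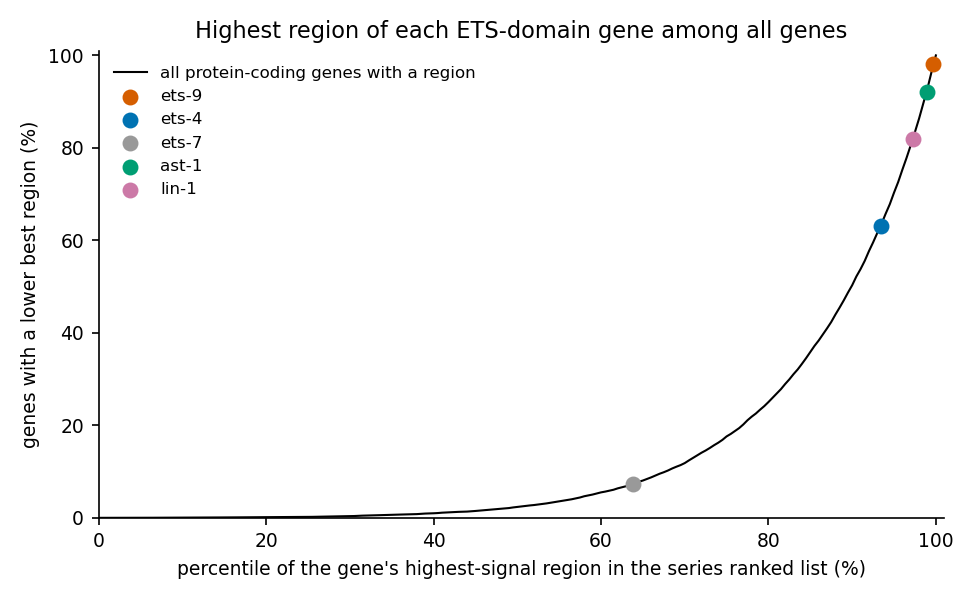
Share of protein-coding genes with a lower highest region (%, vertical) against the percentile of a gene's highest-signal region in the series ranked list (%, horizontal). The line is all genes with a region and the points are the 5 ETS-domain genes. ets-9 lies at 98.1% of genes and ets-7 at 7.32%, below the steep part of the line.

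By their median the 68 regions were near the middle of the series list, and 37 of the 68 are of lin-1. Their median percentile was 55.1, with 37 above the list median, 21 above the 75th percentile and 13 above the 90th. The shares above the 75th and 90th were larger than in the list as a whole, which was not tested. Of the 13, 6 were of lin-1, 4 of ast-1, 2 of ets-4 and 1 of ets-9. By gene the median percentile ran from 28.9 at ets-7 to 70.6 at ets-9. Of the 68 summits, 44 were in introns, 11 upstream, 7 in coding exons, 4 in untranslated exons and 2 downstream. ets-9, ets-4, ets-7 and ast-1 account for 12 of the intronic summits and lin-1 for 32. For 62 of the 68 the nearest annotated start site was that of the ETS-domain gene itself, the exceptions being 3 regions of ets-9 and 3 of lin-1. GC content within 100 bp of the summits averaged 39.3% ± 6.18 (SD, n = 68 regions), against 38.3% ± 6.91 over all ranked regions (SD, n = 126002 regions). It was highest at ast-1, with a mean of 44.1%, and lowest at ets-7, with 34.6%.

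Most of the regions had a counterpart in a replicate list, as most ranked regions did. A replicate 1 region overlapped 80.9% of the 68, against 80.4% of all series regions. A replicate 2 region overlapped 76.5% of the 68, against 69.0% of all. Both replicates overlapped 44 of the 68 (64.7%), against 55.8% of all, and neither overlapped 5 (7.35%), against 6.42% of all. The series ranked list covers 36.9% of the 6 nuclear chromosomes, with a usual region width of 310 bp. It comes from the alignments of both replicates, so a counterpart by position is no independent recurrence. The coverage of the replicate lists was not computed. Over the 44 regions the rank correlation of the replicate signals was 0.15 (Spearman's rho), against 0.22 over 70339 series regions with both counterparts. It was 0.12 over the 25 of lin-1 and -0.36 over the 10 of ast-1. Over the 2408 series regions above the 98th percentile with both counterparts it was -0.34. Those regions were chosen by series signal, which is drawn from both replicates, and such a choice can by itself lower the correlation. The value of -0.34 is therefore no measure of replicate agreement at strong regions. Some neighbouring series regions share a counterpart, so the same replicate values enter more than once. At ast-1 the leading region and that 209 bp past the start share both counterparts, 51.8 in replicate 1 and 13.3 in replicate 2. So do those at 1716 and 1512 bp, and those at 3895 and 3683 bp. The value of -0.36 thus rests on fewer than 10 separate points. These values are given as descriptions.

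**Figure D4:**
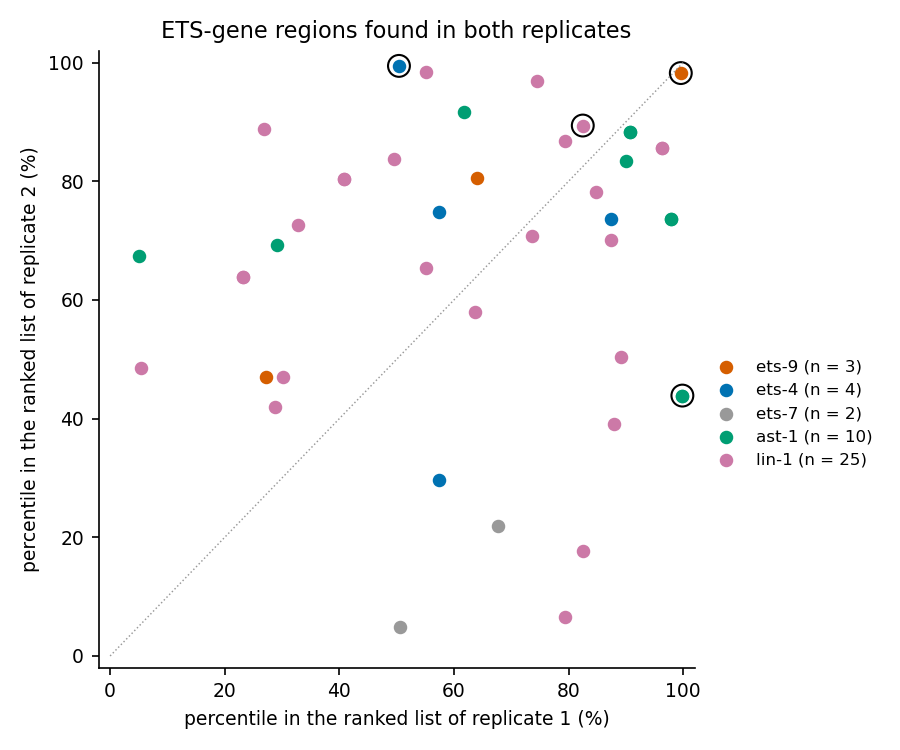
Percentile in the ranked list of replicate 2 (%, vertical) against that in replicate 1 (%, horizontal) for the 44 regions with a counterpart in both, coloured by gene, with the line of equal percentiles dotted. Rings mark the highest series region of ets-9, ets-4, ast-1 and lin-1, and the highest of ets-7 had no replicate 2 counterpart. The ets-9 ring is near the top right corner, while those of ast-1 and ets-4 lie high in 1 replicate and near the middle of the other. Some points coincide.

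The ETS words were then counted on both strands within 100 bp of each summit. The core GGAA was in 61 of the 68 windows (89.7%), against 87.9% of all ranked regions, so nearly every window holds it. The longer CCGGAA, which contains that core, was in 12 of the 68 (17.6%, 95% exact binomial interval 9.47 to 28.8%), against 9.18% of all ranked regions. The windows are not independent, since some overlap and 37 of the 68 are of lin-1, and the interval covers counting error only. Within 50 bp of the summit it was in 14.7% of the 68, against 5.22% of all ranked regions.

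The single highest region of each of the 5 genes had no CCGGAA, and the ets-4 and lin-1 leading windows printed above had no GGAA either. By gene, 8 of the 37 lin-1 windows held CCGGAA, 2 of the 12 of ast-1, 2 of the 9 of ets-4, 0 of the 6 of ets-7 and 0 of the 4 of ets-9. In all 23 separate CCGGAA positions were found, 19 of them at lin-1. In lin-1, 4 windows carried more than 1 copy, and their regions had signals of 27.5, 6.91, 6.15 and 3.11. The first of these, chrIV:2283101-2283301 among the printed sequences, holds 4 copies in a repeated sequence. The windows at 27.5, 6.91 and 3.11, with 4, 4 and 5 copies, were wholly soft-masked, the reference genome's usual mark of repeats. That at 6.15, with 2 copies, was 58.7% soft-masked, against a mean of 29.4% over all ranked regions. The second ast-1 region, in a coding exon, holds 1 copy, with the core starting 16 bp from the summit. A word is a match of letters and not a measured binding site.

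Genes of the same family and of the pathways in which LIN-1, AST-1 and ETS-4 act were listed for comparison. Of the other ETS-domain genes in the annotation, 0 of 3 had a region in the main list, where 1.3% of all genes did. ets-6 had its highest region at a signal of 54.7 and rank 4144, and ets-10 at 45.0 and rank 11954. ets-8 had its highest at only 24.6 and rank 59756. That was percentile 52.6, with 2.90% of genes lower, which is below the 63.9 and 7.32% of ets-7. Of 15 genes of vulval Ras signalling, 0 were called at the main threshold, against 1.3% of all genes, and 0 at IDR under 0.05, against 10.1% of all genes. Their median percentile for the highest region was 91.9, against 89.9 over all genes. The highest of them were at let-60, the Ras gene, with a signal of 60.9 at rank 1962, and at eor-2, with 59.5 at rank 2323.

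Of 7 genes linked to AST-1 through dopaminergic identity, 0 were in the main list (1.3% of all genes) and 1 was below IDR 0.05 (10.1% of all genes), with a median percentile of 95.6, against 89.9 over all genes. That gene was ceh-20, which encodes a PBC-class homeodomain cofactor, with a signal of 67.1 at rank 900 and an IDR of 0.0156. No ceh-20 region was below IDR 0.05 in a single replicate's ranked list, the lowest being 0.105 in replicate 1 and 0.323 in replicate 2. Next to ceh-20 in series rank was bas-1, the aromatic amino acid decarboxylase gene, with 58.4 at rank 2665. Of 7 genes linked to ETS-4 through axon regeneration and RNA decay, 0 were in the main list (1.3% of all genes) and 2 were below IDR 0.05 (10.1% of all genes). Their median percentile was 97.9 over the 6 with a region, against 89.9 over all genes. These were cebp-1, a bZIP factor that acts with ETS-4 in regeneration, with a signal of 77.8 at rank 308 and an IDR of 0.0136, and dlk-1, a MAP kinase kinase kinase gene, with 67.2 at rank 887 and an IDR of 0.0148. In the series list both ranked above all regions of ets-4 itself. Neither had a region below IDR 0.05 in a single replicate's ranked list. The lowest for cebp-1 was 0.334 in replicate 1 and 0.182 in replicate 2, and for dlk-1 0.134 in replicate 1 and 0.188 in replicate 2. The counts are small and these lists were not tested. A gene with more regions has more chances of a high one, and the all-gene median was 6 series regions. The ETS-4 list ran from 0 at mkk-4 to 19 at svh-2, with 17 at dlk-1 and 7 at cebp-1. The AST-1 list ran from 6 at ceh-20 to 11 at cat-1, and the vulval list from 5 at let-60 to 45 at sos-1. The percentiles and calls of the 3 pathway lists were not adjusted for this.

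Genes with the most similar profile were found by the distance between the percentiles of their highest regions in the 3 lists, over 18625 genes. A gene's highest region need not be the same one in each list, so a small distance is no match of single regions. For ets-9 the nearest was twk-28, at distance 0 because it shares the region, and then rab-7 at 0.091 percentile points. For ast-1 they were C46C11.3 at 0.259 and ZC266.1 at 0.479. For lin-1 they were rhgf-3 at 0.345 and Y39B6A.30 at 0.457, and for ets-4 feh-1 at 0.326 and crml-1 at 0.599. For ets-7 they were F43H9.3 at 2.39 and T15D6.12 at 3.09, the widest distances of the 5 genes.

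The outermost regions on each side of the window edge were as follows. At ets-9 the signal was 43.5 just inside, 1959 bp from a start site, and 22.6 just outside at 2170 bp. At ets-4 it was 16.9 inside at 1772 bp and 41.3 outside at 2284 bp, a value below both leading ets-4 regions. Farther out, within 5000 bp, a region at percentile 97.1 was above both. At ets-7 it was 16.0 inside at 1934 bp and 5.76 outside at 2235 bp, with a higher region farther out, at percentile 94.7, within 5000 bp. At ast-1 it was 28.5 inside at 1599 bp and 19.3 outside at 2476 bp. At lin-1 it was 19.6 inside at 1802 bp, and the outside region is the one of 58.1 given above.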

How the data were processed

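Chromatin immunoprecipitation with sequencing was measured in 2 biological replicates of 1 group. Per the text deposited with the lists, regions come from alignments to ce11, for each replicate and for both together, each time with 1 further file, and were ranked or thresholded by IDR. Aligner, caller and versions: not given in the sources used here. For each region, the authors deposited a signal of unstated scale, a score up to 1000 made from the IDR, and the −log10 of the global IDR, converted here to the IDR. The lists give no read counts, so depth is unknown.

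Summits were placed on the Ensembl 115 annotation, in windows of 2000 bp around start sites or in gene bodies. A replicate counterpart is the region of highest signal that overlaps a series region by at least 1 bp. Percentile is the share of a list's regions with lower signal. Comparison genes named are those in the main list and the 2 of best rank in each gene list, and 2 genes of nearest profile. The remaining family gene, ets-8, is named as well. The genes and lists were chosen with earlier results of these data known. With 1 group, no test between groups was made. Assignment was tested on simulated regions. Alternatives tried were the second series list, other windows, the nearest start site, each replicate alone, order by IDR, a narrower word window and the word GGAA. Python 3.11.15, pandas 2.3.3, numpy 2.4.6, scipy 1.17.1 and matplotlib 3.10.9 were used.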

Additional observations from a re-analysis of the deposited data

How the results depend on the processing

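Of 73 alternative values, 17 moved and 56 did not, where a count moves when it differs by over 1.5 times and a percentile when it differs by over 1 SD of the replicates, and a share of windows when it leaves its 95% interval. That SD comes from the same 2 single-replicate values that it is used to judge, so it widens as the replicates disagree. A percentile that did not move is therefore no measure of replicate agreement. For ets-4 the SD is 8.52, and its 87.4 in replicate 1 and 99.4 in replicate 2, against 93.4 in the series, are among the 56. For ets-7 the SD is 35.8, so its percentile of 94.7 with windows of 5000 bp, in place of 63.9, is also among the 56. The call of 1 of the 5 ETS-domain genes became 0 in the second series list with its conservative threshold, 0 with the nearest start site only, and 0 to 0 in the passing lists of a single replicate. Windows of 1000 bp gave 2 regions for ets-9 and 3 for ets-7, and windows of 5000 bp gave 11 for ets-9, 17 for ets-4 and 13 for ets-7. With a single replicate list the number of regions was 2 to 4 for ets-9 and 3 to 4 for ets-7. The nearest start site only left 1 region of ets-9, with its highest at percentile 44.7. With a single replicate the percentile of the highest region was 98.2 to 99.6 for ets-9, 91.7 to 99.9 for ast-1 and 21.9 to 72.5 for ets-7. The lower end of each of these ranges is replicate 2 alone. At every gene but ets-9 the highest regions of the replicates were different regions. With the word GGAA in place of CCGGAA the share of windows was 89.7%. No paired analysis was possible because the series holds 1 group. The limits are those of the lists: 2 replicates of 1 strain, no untagged control analysed here, a signal of unstated scale, unknown depth, ranked lists that cover much of the genome, and windows shared between close genes. The cause of these shifts was not tested.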
